A study of Mus musculus with 4 samples.

Results

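Molecular motors are described here across 4 mRNA sequencing libraries of flow-sorted mouse liver macrophages. The set holds the 92 genes, of 29247 gene IDs in the table, whose mouse symbol names a myosin (Myo or Myh followed by a digit), a kinesin (Kif or Kifc) or a dynein subunit (Dync or Dynl). The antisense gene Kif16bos and the pseudogene Dynlt1-ps1 matched by name and were left out. By family there were 36 myosins, 40 kinesins and 15 dynein subunits, and the remaining gene, Kif1bp, encodes a protein that binds kinesins and is not itself a motor. Counts were found for 88 of the 92 genes in at least 1 library, and 80 passed the filter on low counts and were tested. The other 12 were mostly muscle myosin heavy chains and unconventional myosins with a handful of counts or none.

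The tested condition was acetaminophen (APAP), which destroys hepatocytes at high dose. Cxcr4+ macrophages were sorted from livers of C57BL6J mice aged 8 weeks, 72 h after 300 mg/kg APAP was injected into the peritoneum (3 libraries). The reference was 1 library of macrophages labelled as control, from livers of the same strain and age. The labels give the Cxcr4+ gate for the APAP cells and no gate for the control, so APAP and the sort cannot be told apart. The labels also do not state that the 3 APAP libraries are 3 animals, so every p-value measures the spread between these libraries alone. Their columns carry no number and are called by their order in the table, from the first to the third.

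Myosins are motors that pull on actin filaments: class II myosins assemble into contractile bundles, while unconventional classes carry vesicles, tether membranes or remodel the cell edge. Kinesins walk along microtubules, most of them toward the plus end, carrying organelles or, in dividing cells, building and moving the spindle. Cytoplasmic dynein walks the other way, toward the cell centre, as a large complex of heavy, intermediate, light intermediate and light chains. In macrophages these machines serve migration, phagocytosis and the traffic of endosomes and lysosomes.

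Total counts were between 48282283 and 56702837 in APAP libraries against 49950909 in control. Levels are given as CPM, the count of a gene divided by its library's total and rescaled, with totals adjusted by edgeR's TMM factors. The 4 macrophage markers Adgre1, Csf1r, Cd68 and Itgam summed to 6861 to 8554 CPM in APAP libraries against 10750 CPM in control (2 of 4 lower, 0 higher). They were thus abundant in every library, in accord with the label. Markers of recruited monocytes summed to 502 to 653 CPM in APAP libraries against 23.0 CPM in the control (4 of 4 higher), and those of Kupffer cells, the resident liver macrophages, to 10460 to 13370 against 27970 CPM (4 of 4 lower). Markers of B cells summed to 386 to 576 CPM in APAP libraries against 69.2 CPM in the control (7 of 7 higher), of neutrophils to 34.5 to 108 against 5.56 CPM (3 of 5 higher) and of hepatocytes to 223 to 359 against 739 CPM (5 of 5 lower). Markers of conventional dendritic cells (5 of 5), T cells (4 of 6), NK cells (3 of 5) and cholangiocytes (2 of 4) were also called higher, with 0 lower. Those of plasmacytoid dendritic, stellate and sinusoidal endothelial cells were called in both directions. Every difference below can therefore hold a change in the mix of cells, and the share of any cell type in it was not tested. In bulk libraries, fewer cells that carry a transcript and less of it per cell cannot be told apart.

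Of the 80 motor genes tested, 32 were higher (40.0%) and 11 lower (13.8%) in APAP Cxcr4+ macrophages at an adjusted p of 0.05 in edgeR's quasi-likelihood test, and 37 were not called. Among all 18715 genes tested, 25.4% were higher and 18.9% lower, or 44.3% in either direction. The 43 motor genes called are 53.8% of those tested. The median log2 fold change of the motor genes was 0.60, also with genes at 0 in the control set to their lower bound, and that of all genes was 0.08. Counts are given next by family. Of 27 myosins tested, 16 were higher and 0 lower, with 0 lower also at an unadjusted p of 0.05 and in DESeq2's Wald test, though not in the length-corrected fit described below. Of 38 kinesins, 13 were higher and 3 lower, and of 14 dynein subunits 3 were higher and 8 lower. Without the second APAP library the motor genes called dropped to 27 (20 higher and 7 lower), where 27.3% of all genes were called in either direction. The calls lost were those of Myo1h, Myo3b, Myo10, Myo18b, Myh10, Myh13, Kif3b, Kif3c, Kif5b, Kif12, Kif13a, Kif27, Kifc3, Dync1li1, Dynll1 and Dynlt3.

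**Figure D1:**
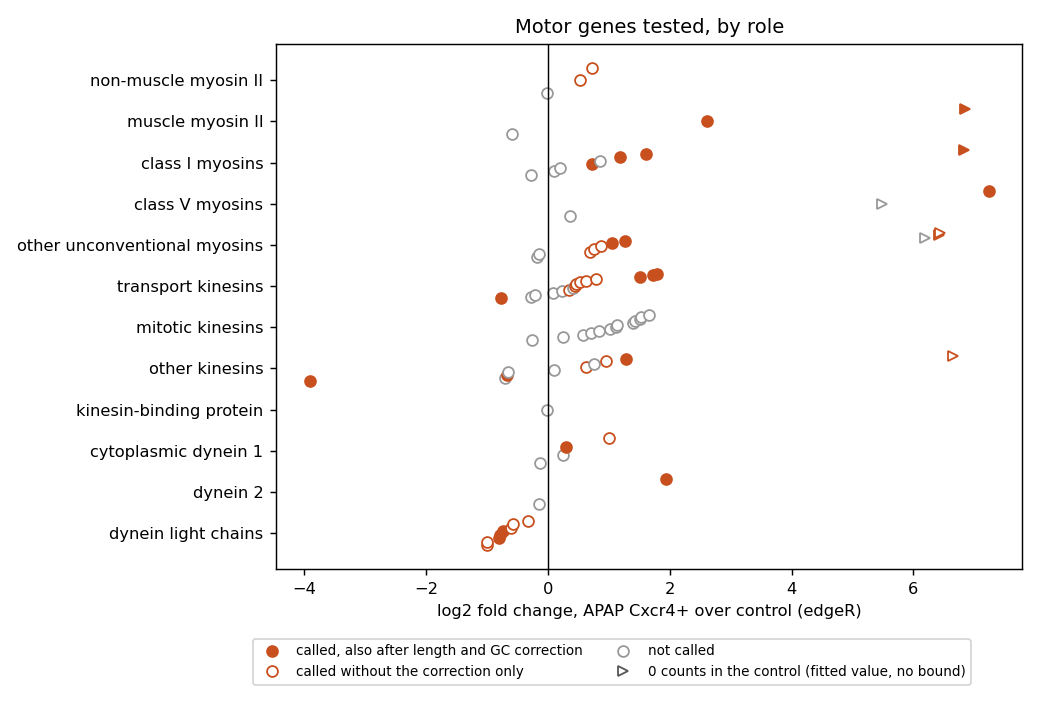
Log2 fold change of each of the 80 motor genes tested, APAP Cxcr4+ over control (x axis), in rows by role. Filled orange points passed the test with and without a correction for transcript length and GC content, open orange points only without it, and grey points did not pass; triangles are genes at 0 counts in the control, whose fitted value is no bound. The 8 dynein light chains lie left of 0, from -1.0 to -0.33, and Myo5a stands far right at 7.23.

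Many motor genes are long, and fold changes in these libraries followed transcript length. Across 12123 genes, which share the same 4 libraries and are not independent, Spearman's rho between log2 fold change and the length of the longest coding transcript was 0.54. Between pairs of APAP libraries it was -0.11, -0.08 and 0.0. The median transcript was 5086 bases for the motor genes tested and 2544 bases for all genes tested. Among motor genes with a transcript of 5 kb or more, 23 of 41 were higher (56.1%). That share was 55.7% among the 2948 genes of that length in the whole table. Among motor genes of 2 to 5 kb, 9 of 35 were higher (25.7%) and 8 lower (22.9%), against 24.8% and 15.1% of all genes of that length. The 4 shorter motor genes had 3 lower, and 29.2% of all genes under 2 kb were lower. Read by length, the share of long motor genes that were higher was near that of other long genes.

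A second fit removed the trend over length and GC content from each gene. It called 15 motor genes higher and 10 lower of 80, against 19.5% higher and 12.7% lower (32.2% in either direction) among all genes, and their median was 0.09 against 0.11 for all genes. By family it called 9 myosins higher and 2 lower of 27, 4 kinesins higher and 5 lower of 38, and 2 dynein subunits higher and 3 lower of 14. The trend had added 0.56 to the median log2 fold change of genes of 5000 bases or more and had taken 0.73 from that of genes of 1000 bases or less. In both fits 15 motor genes were higher, 6 were lower and 0 were called in opposite directions. Those higher in both were Myo5a, Myo1e, Myo1f, Myo1g, Myo1h, Myo9b, Myo19, Myh13, Myh15, Kif3a, Kif9, Kif13b, Kifc2, Dync2h1 and Dync1li1. Those lower in both were Dynll2, Dynlt1a, Dynlt1c, Kif12, Kif19a and Kifc3. What gave rise to the trend with length was not tested. Values from the second fit are called length-corrected below.

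**Figure D2:**
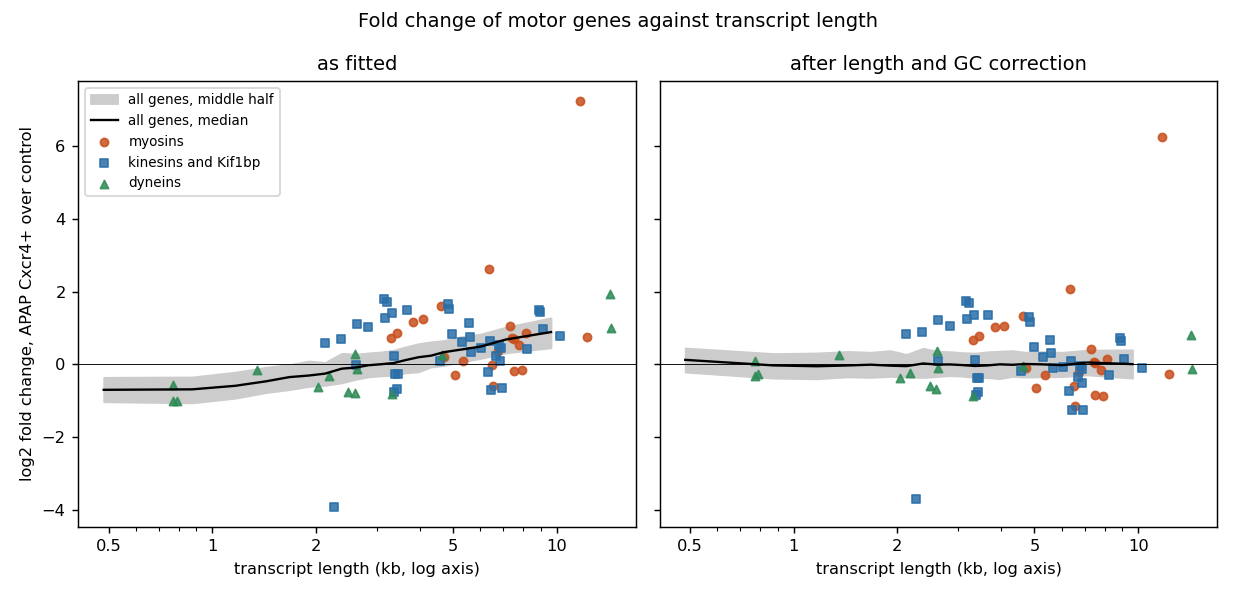
Log2 fold change, APAP Cxcr4+ over control (y axis), against transcript length in kb (x axis, log scale), as fitted on the left and after the length and GC correction on the right. Points are the motor genes tested that had counts in the control; the black line and grey band are the median and middle quartiles of all genes in bins of length. On the left the line climbs from -0.70 in the shortest bin to 0.89 in the longest, and Myo5a is the highest point of both panels, at 7.23 and 6.25.

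Levels of different genes can be compared only per length of transcript. In the APAP libraries the highest motor genes were the non-muscle myosin heavy chain Myh9, at 151 ± 6.42 CPM per kb (SD, n = 3) against 91.1 CPM per kb in the control, and Myo1f, at 142 ± 16.1 against 62.7 CPM per kb. Next came the dynein light chain Dynlrb1, at 69.7 ± 4.50 CPM per kb in the APAP libraries, which was the highest motor gene of the control at 139 CPM per kb. Myo9b (54.0 against 26.1 CPM per kb), Dync1h1 (48.8 against 24.5 CPM per kb) and Myo1g (45.4 against 27.5 CPM per kb) followed. Kif1c, the kinesin with the highest mean per length, stood at 35.7 CPM per kb in APAP libraries against 30.4 CPM per kb in the control.

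**Figure D3:**
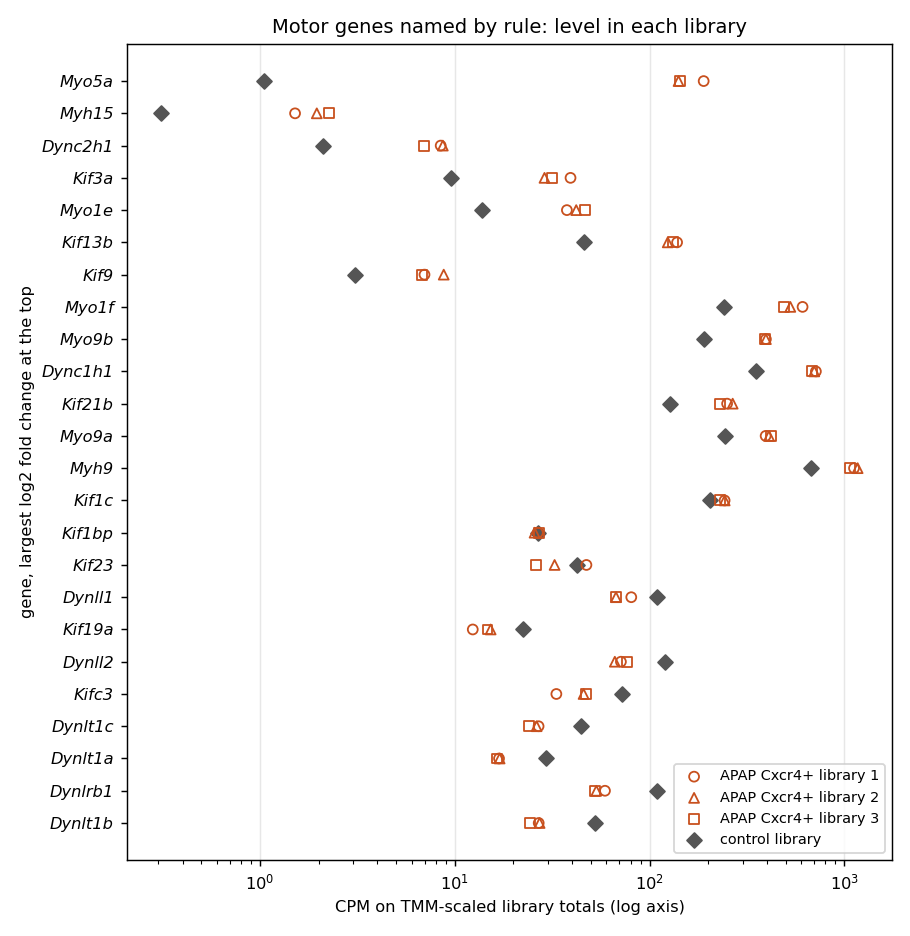
CPM of the motor genes named by rule in each library (x axis, log scale), with the gene of largest log2 fold change at the top. Genes named as the largest rises or falls were taken only where all 3 APAP libraries lay on the same side of the control. For these genes the lack of overlap was fixed by the choice. With 1 control library, 45.7% of all genes tested had the control below every APAP library and 39.2% above. Open orange symbols are the 3 APAP Cxcr4+ libraries and the grey diamond the control; for Myo5a the APAP symbols lie at 141 to 190 CPM and the diamond at 1.05 CPM, while for Kif1bp all 4 coincide near 26 to 27 CPM.

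Non-muscle myosin II, the contractile motor of cells outside muscle, was represented by Myh9, Myh10 and Myh14, and the first 2 of these rose. Myh9 was at 1121, 1170 and 1074 CPM in APAP libraries against 677 CPM in control (log2 fold change 0.73, SE 0.11; adjusted p 0.00513). All 3 APAP libraries lay above the control, which held for 45.7% of all genes tested. Among all genes with a transcript of 5 kb or more it held for 2219 of 2948. Myh10 rose by 0.53. The length-corrected values of both genes, 0.08 for Myh9 and -0.15 for Myh10, did not pass the test. Myh14 stood at -0.02 (length-corrected -0.58) and did not pass in either fit.

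Class I myosins are single-headed motors that link membranes to actin. Of the 8 genes of this class, 4 rose (Myo1e, Myo1f, Myo1g and Myo1h), where 25.4% of all genes were higher. All 4 were also higher in the length-corrected fit, where 19.5% of all genes were. Myo1e, a long-tailed member known from endocytic and adhesion sites, was at 37.6, 42.0 and 46.8 CPM in APAP libraries against 13.8 CPM in control (log2 fold change 1.61, SE 0.16; adjusted p 0.00168; length-corrected 1.32). Its lowest APAP library was above the control, as the rule for the largest rises required. Myo1f, which is expressed mainly in immune cells, was at 610, 528 and 489 CPM in APAP libraries against 240 CPM in control (log2 fold change 1.18, SE 0.15; adjusted p 0.0032; length-corrected 1.03). Myo1g, a short-tailed motor of blood cells, rose by 0.72 (length-corrected 0.67). The most abundant of the rest, Myo1c, was at 134 to 152 CPM in APAP libraries against 125 CPM in control and did not pass the test (log2 fold change 0.20, adjusted p = 0.173; length-corrected -0.11). Myo1h had 14 to 15 counts in each APAP library and 0 in the control, at least 4.06-fold higher against a floor of 3 counts, and lost its call without the second APAP library.

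Class V myosins carry vesicles and pigment granules along actin, and Myo5a (ENSMUSG00000034593) had the largest fold change of any motor gene with counts in every library. Its counts were 9524, 7561 and 8394 in APAP libraries against 47 in control. In CPM it stood at 190, 141 and 143 in the APAP libraries (mean 158 ± 27.5, SD, n = 3) and at 1.05 in the control, so that the APAP mean was 151-fold the control value. The groups were far apart, and the spread among APAP libraries was small beside the gap. The log2 fold change was 7.23 (SE 0.32, adjusted p = 0.000841), and 6.25 in the length-corrected fit (adjusted p = 0.0012). It passed in all 11 alternatives, with values from 6.25 to 7.31, the test against a log2 fold change of 1 among them. Per length Myo5a remained a middling transcript, at 13.5 ± 2.35 CPM per kb in APAP libraries against 0.0894 CPM per kb in the control. The other class V genes were near the limit of detection: Myo5b had 29 to 49 counts per APAP library against 23 in the control, Myo5c had 2 to 11 against 0, and neither passed.

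The promoter window of Myo5a is shown because this gene changed most. It runs from 250 bases before the transcript start to 50 after it (RefSeq, build GRCm38.p6, chr9:75070956-75071255, plus strand), with the letters GGGCGG in capitals, a GC-box motif that is known to bind Sp1-type factors. That motif begins 40 bases before the start.
Myo5a: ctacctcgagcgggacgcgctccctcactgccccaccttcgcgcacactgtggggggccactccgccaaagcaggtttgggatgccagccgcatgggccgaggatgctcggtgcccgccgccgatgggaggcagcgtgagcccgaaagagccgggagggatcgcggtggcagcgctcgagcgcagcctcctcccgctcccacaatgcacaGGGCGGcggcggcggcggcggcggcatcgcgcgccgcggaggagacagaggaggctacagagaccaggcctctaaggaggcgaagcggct
The letters GGGCGG, searched on both strands, occur in the windows of 61.1% of the 72 motor genes that have one and in 38.2% of 27025 genes. A match describes the letters and is not evidence of a bound site.

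Rab27a, the vesicle GTPase that recruits Myo5a to melanosomes through melanophilin, was at 19.7, 18.5 and 14.4 CPM in APAP libraries against 7.81 CPM in control and rose by 1.17 (adjusted p = 0.00947; length-corrected 1.12). Melanophilin itself (Mlph) fell by 1.44 (adjusted p = 0.0417; length-corrected -1.70), at 0.375 to 0.633 CPM in APAP libraries against 1.29 CPM in the control. The call of Mlph was lost in 5 of 10 alternatives, each of those leaving out an APAP library among them. Among 15 tested genes for cargo partners of unconventional myosins, 4 were higher (26.7%) and 7 lower (46.7%), against 25.4% and 18.9% of all genes. In the length-corrected fit 2 were higher and 5 lower, against 19.5% and 12.7% of all genes. Rab11fip2, an adaptor of the Rab11 recycling pathway, rose by 1.10, a call lost in the length-corrected fit (0.67, adjusted p = 0.0716) and without the second APAP library. Rab11a itself fell by 0.52 (length-corrected -0.45) and the tropomyosin Tpm3 by 0.68 (length-corrected -0.50), and both were lower in both fits. Mlph is named here after its value was seen.

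Among the other unconventional myosins, 7 of 10 tested were higher (70.0%, against 25.4% of all genes). Of these, 2 were so in both fits, Myo9b and Myo19. Myo9b, which carries a domain that switches off the GTPase RhoA, was at 396, 396 and 390 CPM in APAP libraries against 190 CPM in control. Its log2 fold change was 1.05 (SE 0.10, adjusted p = 0.00139; length-corrected 0.41, adjusted p = 0.0221). The APAP libraries were nearly identical, and all lay above the control as the rule for the largest rises required. Myo9a, its close relative and the most abundant of the group, was at 394, 411 and 420 CPM in APAP libraries against 243 CPM in control (log2 fold change 0.75; adjusted p 0.00324). Its length-corrected value had the other sign, -0.27 (adjusted p = 0.0727). Myo19, a motor of the mitochondrial surface, rose by 1.26 (length-corrected 1.06), Myo10, a motor of filopodia, by 0.87 and Myo18a by 0.69. The length-corrected values of Myo10 (0.16) and Myo18a (0.03) did not pass. Myo6, which moves toward the minus end of actin, and Myo7a did not pass as fitted, at -0.15 and -0.17, and were lower in the length-corrected fit, at -0.86 and -0.83.

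Muscle myosin heavy chains were nearly absent. Of the 10 genes, 3 passed the filter, and Myh1, Myh2 and Myh4 had 0 counts in every library. Myh15 had 76, 105 and 133 counts in APAP libraries against 14 in control, or 1.51, 1.96 and 2.27 CPM against 0.312 CPM, and rose by 2.61 (SE 0.44, adjusted p = 0.00642; length-corrected 2.07). Myh13 had 11 to 22 counts in APAP libraries against 0 in control, at least 4.08-fold higher against a floor of 3 counts. It was called in both fits but not without the second APAP library. Some muscle heavy chains resemble each other closely, so that reads could be split between them. Up to 24.9% of the 50-base stretches of a transcript, in Myh1, recur in another motor gene. For the genes tested the share was 6.9% in Myh13, 0.4% in Myh11 and 0.0% in Myh15. Smooth muscle Myh11, at 12 to 24 counts in APAP libraries against 24 in control, did not pass (-0.59; length-corrected -1.14).

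The light chains and regulators that switch myosin II on and off were called in both directions. Of 16 such genes tested, 5 were higher (31.2%) and 5 lower (31.2%), against 25.4% and 18.9% of all genes. Their median log2 fold change was -0.13. In the length-corrected fit 3 were higher and 6 lower, against 19.5% and 12.7% of all genes, and the median was -0.39. The regulatory light chains Myl12a and Myl12b fell by 1.18 and 1.32, and the essential light chain Myl6 fell by 1.11. Myl6 was at 368, 328 and 319 CPM in APAP libraries against 730 CPM in control. These 3 were also lower in the length-corrected fit, at -0.90, -1.09 and -0.72. Rock1, a kinase that activates myosin II, rose by 1.01 and was higher after correction as well (0.45).

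Transport kinesins carry membranes and other cargo along microtubules. Of the 15 genes, 9 were higher and 1 lower, against 25.4% and 18.9% of all genes. The share higher was 55.7% among all genes with a transcript of 5 kb or more. In the length-corrected fit 3 of the 15 were higher and 3 lower, against 19.5% and 12.7% of all genes. Without the second APAP library 5 were higher and 0 lower, where 27.3% of all genes were called in either direction. Kif3a, a motor subunit of kinesin-2, was at 39.3, 28.9 and 31.6 CPM in APAP libraries against 9.57 CPM in control (log2 fold change 1.80, SE 0.21; adjusted p 0.00243; length-corrected 1.75). All 3 APAP libraries lay far above the control, and the rule for the largest rises required them above it. Its usual partner Kif3b rose by 0.35 and had a length-corrected value of -0.09 that did not pass; the difference between the subunits was not tested. Kif13b, a kinesin-3, was at 138, 124 and 131 CPM in APAP libraries against 46.2 CPM in control (log2 fold change 1.51, SE 0.11; adjusted p 0.00107; length-corrected 0.73).

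The ubiquitous kinesin-1 heavy chain Kif5b was at 122, 123 and 122 CPM in APAP libraries against 89.6 CPM in control and rose by 0.45, with a length-corrected value of -0.06. Kif1b rose by 0.78, Kif16b by 0.63, Kif3c by 0.52 and Kif13a by 0.46, and their length-corrected values, between -0.13 and 0.08, did not pass. Kif1c, the most abundant gene of the group, was at 243, 243 and 230 CPM in APAP libraries against 203 CPM in control and did not pass as fitted (0.23, adjusted p = 0.0906), while its length-corrected value of -0.34 did. Kifc2, a minus-end motor, rose by 1.72 (length-corrected 1.69). Kifc3, another minus-end motor, was at 33.2, 45.8 and 47.2 CPM in APAP libraries against 71.8 CPM in control (log2 fold change -0.77; adjusted p 0.0248; length-corrected -0.84), and lost its call without the second APAP library. Kif1bp stood at 26.7, 25.7 and 27.1 CPM in APAP libraries against 26.7 CPM in control. It did not pass (log2 fold change -0.01, adjusted p = 0.938), and the control lay within the APAP range.

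Genes that join kinesins to cargo were tested as a list of 17. Of these 7 were higher (41.2%) and 2 lower (11.8%), against 25.4% and 18.9% of all genes. In the length-corrected fit 4 were higher and 2 lower, against 19.5% and 12.7% of all genes. The autophagosome and lysosome adaptor Fyco1 was at 49.4 to 56.2 CPM in APAP libraries against 21.6 CPM in control and rose by 1.32 (length-corrected 0.62). The scaffold Mapk8ip3 rose by 1.22 (length-corrected 0.78), its relative Spag9 by 0.77 and the mitochondrial adaptor Trak1 by 0.54, the last 2 without a call after correction.

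Mitotic kinesins build the spindle, move chromosomes and close the cell at division. All 13 genes were tested and 0 were called in edgeR's quasi-likelihood test, with 4 higher at an unadjusted p of 0.05 and 3 higher by DESeq2's Wald test (Kif14, Kif15 and Kifc5b; 42.4% of all genes were called by that test). The median log2 fold change was nevertheless 1.11, and 0.89 after the length correction. Their APAP libraries disagreed: the first was the highest for 13 of 13 genes, where it was the highest of the APAP libraries for 36.9% of all genes tested. The median coefficient of variation among APAP libraries was 48.1% for these genes and 12.1% for all genes. Summed over the 13 genes, the libraries held 243, 130 and 99.8 CPM in the APAP group and 97.3 CPM in the control.

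Kif11, the plus-end motor that pushes spindle poles apart, was at 34.7, 17.5 and 13.3 CPM in APAP libraries against 6.92 CPM in control. All APAP values lay above the control, which held for 45.7% of all genes tested. Yet the APAP values of Kif11 differed so much that the log2 fold change of 1.65 had an SE of 0.57 (edgeR adjusted p = 0.0616, length-corrected 1.3). Without the first APAP library its value was 1.15 with an adjusted p of 0.00387. Kif23, a component of the midzone of dividing cells and the most abundant of the group, was at 47.4, 32.5 and 26.2 CPM in APAP libraries against 42.4 CPM in control, inside the APAP range (log2 fold change -0.26, adjusted p = 0.51; length-corrected -0.36). Without the first APAP library, 3 mitotic kinesins were higher (Kif11, Kif15 and Kif20a) and Kif23 was lower. In that fit 50.8% of all genes were called in either direction. Without the third, 9 were higher, where 45.2% of all genes were called in either direction. Kifc1 and Kifc5b share 45.8% and 40.9% of their 50-base stretches with each other, so the split of reads between them is uncertain.

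**Figure D4:**
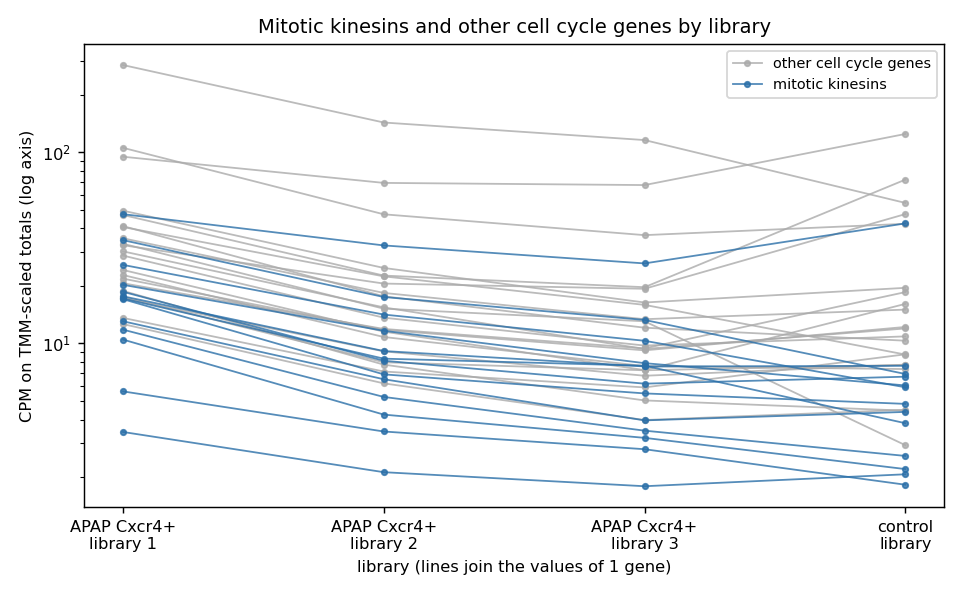
CPM on a log axis (y) of the 13 mitotic kinesins (blue) and 21 other cell cycle genes (grey) in the 3 APAP Cxcr4+ libraries and the control (x); each line joins the values of 1 gene, and the libraries have no order. Every blue line is highest in the first of the APAP libraries.

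The cell cycle list of 21 genes, which holds Cenpe, a kinetochore kinesin that the symbol rule does not take, had the same order: the first APAP library was the highest for 21 of 21. Their sums were 993, 514 and 411 CPM in APAP libraries against 507 CPM in control. Of the 21 genes, 2 were higher and 2 lower (19.0% called, against 44.3% of all genes), and in the length-corrected fit 0 were higher and 1 lower. Mki67, of dividing cells, rose by 1.74, a call lost in 5 of 11 alternatives (length-corrected 0.86, adjusted p = 0.237). Cenpf, also of dividing cells, rose by 2.80 (length-corrected 1.84, adjusted p = 0.0686). The replication genes Pcna and Mcm2 fell by 0.69 and 0.97; Mcm2 was lower in both fits (length-corrected -1.03), Pcna was not (-0.35), and the calls of both were lost without the second APAP library. The first APAP library also had the highest neutrophil marker sum (108, 69.0 and 34.5 CPM in APAP libraries against 5.56 CPM in control). The part of these markers in the spread was not tested.

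The promoters of 3 mitotic kinesins are shown because they carry a motif that the choice of genes did not use. TTTGAA is the core of the cell cycle homology region, at which repressor and activator complexes of late cell cycle genes are known to bind, and CCAAT is the box bound by NF-Y. Capitals mark TTTGAA and CCAAT or their reverse complements TTCAAA and ATTGG. The windows are from RefSeq (GRCm38.p6): Kif11 at chr19:37376132-37376431 on the plus strand, Kif18b, which trims astral microtubules, at chr11:102925075-102925374 on the minus strand, and Kif4, a chromosome-bound motor, at chrX:100625815-100626114 on the plus strand.
Kif11: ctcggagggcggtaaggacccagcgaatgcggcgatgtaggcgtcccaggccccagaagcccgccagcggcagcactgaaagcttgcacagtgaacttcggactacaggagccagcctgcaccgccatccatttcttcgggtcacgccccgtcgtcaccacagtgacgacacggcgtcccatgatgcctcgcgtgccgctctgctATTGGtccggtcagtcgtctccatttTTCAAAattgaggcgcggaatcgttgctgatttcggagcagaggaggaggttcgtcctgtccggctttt
Kif18b: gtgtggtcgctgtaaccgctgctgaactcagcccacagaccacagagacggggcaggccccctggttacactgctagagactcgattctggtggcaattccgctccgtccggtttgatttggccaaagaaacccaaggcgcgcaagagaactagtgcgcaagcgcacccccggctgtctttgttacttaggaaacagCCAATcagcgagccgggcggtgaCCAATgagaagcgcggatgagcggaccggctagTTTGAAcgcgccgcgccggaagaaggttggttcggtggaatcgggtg
Kif4: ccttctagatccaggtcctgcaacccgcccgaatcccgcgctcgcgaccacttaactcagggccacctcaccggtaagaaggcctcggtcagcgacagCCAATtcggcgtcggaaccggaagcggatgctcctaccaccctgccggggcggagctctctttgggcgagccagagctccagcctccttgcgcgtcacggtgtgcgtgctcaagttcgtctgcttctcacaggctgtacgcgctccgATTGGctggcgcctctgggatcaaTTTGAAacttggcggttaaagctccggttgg
TTTGAA or its reverse complement was found in 11 of the 12 mitotic kinesins with a window (91.7%) and in 20.2% of 27025 genes. Within 60 bases of the start it was found in 9 of 12 and in 6.36% of all genes. It begins 19 bases before the start in Kif11, and 3 and 19 bases after it in Kif18b and Kif4. The related TTCGAA was in 0 of 12 windows and 1.8% of all. CCAAT was in 8 of 12 (66.7%) and 41.1% of all, and the 2 motifs, which may overlap by a base, occurred together in 8 of 12 (66.7%) and 7.97% of all. Over all 72 motor genes with a window TTTGAA was in 22.2%, and the Myo5a window printed above has neither TTTGAA nor CCAAT. These are letters in a window, and binding was not measured.

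Of the other kinesins, 10 were tested, and 4 were higher and 2 lower, against 25.4% and 18.9% of all genes. In the length-corrected fit 1 was higher and 2 lower, against 19.5% and 12.7% of all genes. Kif9, a kinesin linked to podosomes of human macrophages, was at 6.99, 8.77 and 6.76 CPM in APAP libraries against 3.07 CPM in control (log2 fold change 1.29, SE 0.24; adjusted p 0.00909; length-corrected 1.25). Kif21b, a kinesin-4 that slows microtubule growth, was at 250, 267 and 230 CPM in APAP libraries against 128 CPM in control and rose by 0.96, with a length-corrected value of 0.16 that did not pass. Kif2a, which takes microtubules apart at their ends, rose by 0.63 (length-corrected 0.20, not called). Kif19a, known in mice for limiting the length of cilia, was at 12.4, 15.3 and 14.7 CPM in APAP libraries against 22.4 CPM in control (log2 fold change -0.67, SE 0.16; adjusted p 0.0189; length-corrected -0.75). Every APAP library was below the control, as the rule for the largest falls required. Kif12 had 0, 2 and 2 counts in APAP libraries against 18 in control and fell by 3.91 (adjusted p = 0.0279; length-corrected -3.71), a call lost in DESeq2's Wald test and without the second APAP library.

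Cytoplasmic dynein 1 is the main minus-end motor of the cell. Of 4 genes tested for its chains other than the light chains, 2 were higher and 0 lower, against 25.4% and 18.9% of all genes. In the length-corrected fit 1 was higher and 0 lower, against 19.5% and 12.7% of all genes. The heavy chain Dync1h1 was at 714, 701 and 683 CPM in the APAP libraries (699 ± 15.4, SD, n = 3) and 351 CPM in the control (log2 fold change 1.0, SE 0.10; adjusted p 0.00179). The APAP libraries stood close together, and the rule for the largest rises required all of them above the control. With a transcript of 14342 bases it is the longest of the tested motor genes, and its length-corrected value of -0.12 did not pass (adjusted p = 0.385). The light intermediate chain Dync1li1 rose by 0.30 (adjusted p = 0.0484; length-corrected 0.38), a call lost in 7 of 11 alternatives. The intermediate chain Dync1i2 was at 86.0 to 96.0 CPM in APAP libraries against 101 CPM in control and did not pass (-0.14; length-corrected -0.09).

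Dynein 2 moves cargo inside cilia. Its heavy chain Dync2h1 was at 8.46, 8.68 and 6.91 CPM in APAP libraries against 2.09 CPM in control (log2 fold change 1.94, SE 0.24; adjusted p 0.00264; length-corrected 0.82, adjusted p = 0.041). The groups did not overlap, which the rule for the largest rises required. Its light intermediate chain Dync2li1 stood at -0.15 (length-corrected 0.26) and did not pass in either fit.

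All 8 dynein light chain genes fell, where 18.9% of all genes were called lower. Each had all 3 APAP libraries below the control, where 39.2% of all genes tested had the control above every APAP library. Light chains hold the intermediate chains together, and several also serve in other complexes. The median log2 fold change was -0.76. Dynlrb1, of the roadblock type, was at 59.0, 53.3 and 52.5 CPM in APAP libraries against 109.5 CPM in control (log2 fold change -0.99, SE 0.10; adjusted p 0.00168). Dynll2, of the LC8 type that also binds Myo5a, was at 71.2, 66.3 and 76.9 CPM in APAP libraries against 120 CPM in control (log2 fold change -0.75, SE 0.11; adjusted p 0.00398). Its sister Dynll1 was at 80.5, 67.2 and 66.9 CPM in APAP libraries against 109 CPM in control and fell by 0.61. Dynlt3 fell least, by 0.33 (adjusted p = 0.0392; length-corrected -0.23), a call lost in 7 of 11 alternatives. Without the second APAP library 6 of the 8 were lower, the calls of Dynll1 and Dynlt3 being lost. In that fit 27.3% of all genes were called in either direction. For Dynlrb1, Dynll1 and Dynll2 the APAP libraries lay below the control without overlap, as the rule for the largest falls required.

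The 4 Tctex-type genes Dynlt1a, Dynlt1b, Dynlt1c and Dynlt1f are near copies, with 58.9%, 83.2%, 93.7% and 93.1% of their 50-base stretches found in another of them, so their separate values are uncertain. Dynlt1b was at 27.0, 27.2 and 24.4 CPM in APAP libraries against 52.6 CPM in control, and fell by 1.0 (length-corrected -0.33, adjusted p = 0.0684). Dynlt1a was at 16.9, 17.0 and 16.5 CPM in APAP libraries against 29.2 CPM in control, and fell by 0.80. Dynlt1c was at 26.9, 26.3 and 24.1 CPM in APAP libraries against 44.4 CPM in control, and fell by 0.78. Dynlt1a, Dynlt1b and Dynlt1c were lower in each APAP library than in the control, as the rule for the largest falls required. In the length-corrected fit 3 of the 8 light chains were lower, where 12.7% of all genes were. These were Dynll2 at -0.60 and the near copies Dynlt1a at -0.87 and Dynlt1c at -0.69. The value of Dynlrb1 there was -0.25 (adjusted p = 0.112), that of Dynll1 -0.38 (adjusted p = 0.0753), and that of Dynlt1f 0.10, with the other sign. The median of the 8 became -0.35. Their transcripts, with a median of 2103 bases, are short beside the heavy chain.

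Dynactin, the complex that couples dynein to cargo and lets it walk far, had 12 genes tested. Of these 8 fell (66.7%, against 18.9% of all genes), with a median log2 fold change of -0.31 against 0.08 for all genes. In the length-corrected fit 2 of the 12 were lower (Actr10 and Actr1a), where 12.7% of all genes were. With the second APAP library left out 2 fell, and with the third left out 4. Dctn3 was at 33.2, 28.0 and 29.0 CPM in APAP libraries against 52.9 CPM in control and fell by 0.82 (length-corrected -0.17, not called). Actr10 fell by 0.66 (length-corrected -0.89), the capping protein Capzb by 0.55 (-0.18, not called) and the filament subunit Actr1a by 0.41 (-0.33). Of 14 regulators and cargo adaptors of dynein, 5 rose (35.7%, against 25.4% of all genes). In the length-corrected fit 1 did so, Hook3, where 19.5% of all genes were higher. Hook3 was at 108, 118 and 102 CPM in APAP libraries against 40.3 CPM in control and rose by 1.44 (adjusted p = 0.00123; length-corrected 0.39). Hook1 rose by 1.54, Clip1 by 0.65 and Bicd2 by 0.42, without a call after correction.

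Over the 80 motor genes tested, the control lay below every APAP library for 49, where 45.7% of all genes did so. It lay above every APAP library for 17 (39.2% of all genes) and within the APAP range for 14 (2836 of all 18715 genes). Among genes of 5 kb or more, the control lay below every APAP library for 31 of 41 motor genes and for 2219 of all 2948. Besides Kif12, Myo1h and Myh13, given above, calls at low counts were those of Kif27, Myo3b and Myo18b. Each of these had 7 to 20 counts per APAP library and 0 in the control. They were at least 3.58-, 3.09- and 3.07-fold higher against a floor of 3 counts. These 3 calls were lost in the length-corrected fit and without the second APAP library.

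Under other settings the count of motor genes called is given with the share of all tested genes called in the same fit. It was 43 with DESeq2's Wald test (42.4%), 42 with DESeq2 size factors (44.3%), 42 with upper-quartile factors (44.6%) and 41 with limma-voom (41.6%). It was 45 of 88 with no count filter (30.3%) and 35 of 58 with a filter of 5 CPM in 1 library (55.2%). Tested against a log2 fold change of 1, it was 6 (7.37%). With the first APAP library left out it was 49 (50.8%), and with the third left out 50 (45.2%).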

How the data were processed

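Per the labels, libraries of sorted liver macrophages were made with a Tecan mRNA-seq kit (universal plus). The deposited values are whole-number read counts per Ensembl gene, not normalized by the authors. HISAT2, Subread and the build mm39 appear in the submitters' processing notes, while no annotation, strand setting or rule for shared reads is given in the sources used here. Low counts from 1 to 9 were even in 65.7% to 66.5% of cases in the APAP group against 71.0% in the control, an excess whose cause was not tested. A pair of counts may therefore stand for a single fragment. The floor of 3 counts would then be fewer than 3 fragments, and the lower bounds of fold built on it could be too high. The floor was meant for counting error only. Symbols were matched for 28926 of the 29247 gene IDs. Members and lists were chosen with earlier results of these data known. The rule for motor genes given in full took the 10 largest rises and 8 largest falls with an adjusted p under 0.05, an average level of at least 2 on the log2 CPM scale and no APAP value across the control's, and the most abundant gene of each role; for partner lists it took up to 4 genes of smallest p.

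All genes were fitted in edgeR 4.0.16 (R 4.3.3) with TMM factors (1.04, 1.03 and 1.03 for APAP, 0.9 for the control), filterByExpr at its defaults (a count of at least 10 and a total of at least 15), the quasi-likelihood test and Benjamini-Hochberg adjustment over 18715 genes, with 0.05 as the limit. The control being 1 library, the spread came from the APAP libraries (2 residual degrees of freedom, 3.8 prior), and the control was assumed to vary alike. The length-corrected fit removed a loess trend (span 0.5) of fold change over the length and GC content of the longest coding GENCODE M21 transcript, estimated on genes above a log2 CPM of 1. Other settings used DESeq2 1.42.0 and limma 3.58.1. The fit and the correction were tested on simulated data. Promoter windows are RefSeq's for GRCm38.p6, a different build from that of the counts, and were found for 72 of 92 motor genes.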

Additional observations from a re-analysis of the deposited data

How the results depend on the processing

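Of the 43 motor genes called, 32 higher and 11 lower, glmTreat, which asks for a log2 change beyond 1, left 6, with 6 higher and 0 lower, and the length and GC correction gave 25, with 15 higher and 10 lower. Leaving out 1 APAP library at a time gave 27 to 50 calls, 20 to 39 higher and 7 to 12 lower, the fewest without the second library. Of the 47 partner genes called, 23 higher and 24 lower, these settings gave 1 (1 higher and 0 lower) and 26 (10 higher), and leaving out 1 library gave 21 to 54 calls, 13 to 30 higher and 8 to 29 lower. The cause of these moves was not tested, apart from the stricter threshold of glmTreat. Of all genes tested, 44.3% were called as fitted, 7.37% by glmTreat and 32.2% after the length and GC correction. Among genes called in the fit with or without it, the sign of the log2 fold change turned in the length and GC correction for Dync1h1 (-0.12), Dynlt1f (0.10), Myh10 (-0.15), Myo9a (-0.27), Kif13a (-0.13), Kif1b (-0.10), Kif1c (-0.34), Kif3b (-0.092), Kif3c (-0.055) and Kif5b (-0.065). DESeq2 size factors, upper-quartile factors and limma-voom each changed at most 2 of the 80 single-gene calls. With no count filter the median log2 fold change of all genes was 0.53, against 0.08 with the filter, and that of the motor genes 0.63. No paired analysis was possible because the control is a single library and the APAP columns carry no replicate number. With 1 control library, a deviation of that library cannot be seen, and no alternative here tests it.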
